A study of Mus musculus with 7 samples.

Results

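RNA released in extracellular vesicles (EVs) by Dis3l2 knockdown macrophages was set against RNA of whole cells of the same line. The comparison has 2 members of the 7 libraries in the series, the EV shDis3l2 library and the WC shDis3l2 library (WC, whole cell). They were chosen by their labels, with earlier results of these data known. Both come from RAW264.7, a mouse macrophage line, carry the shDis3l2 hairpin and were treated with doxycycline (1 µg/mL), with EVs taken from medium collected over 24 h. A sucrose gradient separated the EVs, and micrococcal nuclease was then added, which digests RNA outside vesicles. Values of the shNS pair (EV shNS and WC shNS, a non-silencing hairpin with doxycycline) and of EVs from shDis3l2 cells with an empty vector (Vector), an shRNA-resistant transgene (Dis3l2r) or a catalytically inactive one (D389N) are given beside it. All 7 libraries had doxycycline at 1 µg/mL, with 3 days before the medium was changed. Cell RNA was depleted of rRNA per the labels, which name no such step for the EVs, so depletion, nuclease and compartment cannot be told apart. Each group has 1 library, so no difference below was tested, and every interval is a 95% interval that covers counting error only. Neither the macrophage label nor the knockdown could be checked, since no transcript ID of the table has a gene name.

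Dis3l2 is an exoribonuclease that degrades RNA from the 3′ end and favours RNA with an added uridine tail. Its known substrates include faulty transcripts of RNA polymerase III, the enzyme that makes tRNA and other short structured RNAs. A tRNA carries an amino acid to the ribosome and reads a codon through its anticodon. Some tRNA genes hold an intron that is cut out before the tRNA can work. EVs are membrane particles that cells release, and short structured RNAs are known to make up much of their RNA. B1 and B2 SINEs are short repeats of the mouse genome, and 4.5S RNA is a short rodent RNA; RNA polymerase III transcribes all of them.

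The whole-RNA rows of the table summed to 18428621 counts in EV shDis3l2 and 32342600 counts in WC shDis3l2. Levels are given as CPM, the counts scaled to a total of 1000000 per library and not divided by RNA length. A single transcript row, ENSMUST00000083988, took 3.43% of EV counts and 46.1% of cell counts. In the shNS pair it took 5.34% of EV counts and 19.3% of cell counts. Leaving this row out of both totals lowered every log2 ratio by a fixed amount (a shift of -0.84), so values are also given without it. Other scalings shifted the ratios between -0.48 (TMM) and 0.72 (DESeq2 size factors).

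Rows named as tRNA held most of the EV counts and little of the cell counts. Named tRNA rows, separate spliced rows included, made up 71.0% of EV counts (70.9% to 71.0%) and 9.09% of cell counts (9.08% to 9.10%), a log2 ratio of 2.96. Without the largest row the shares were 73.5% in EVs and 16.9% in cells, and the log2 ratio was 2.12. The 4.5S RNA held 6.69% of EV counts and 0.0865% of cell counts. SINE rows held 0.154% of EV counts and 0.0113% of cell counts. Transcript rows held 22.2% of EV counts and 90.8% of cell counts. The table does not give their RNA types, so they may include tRNAs that carry no tRNA name. The shNS pair had the same order of classes, with named tRNA at 75.04% in EVs and 13.7% in cells.

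**Figure D1:**
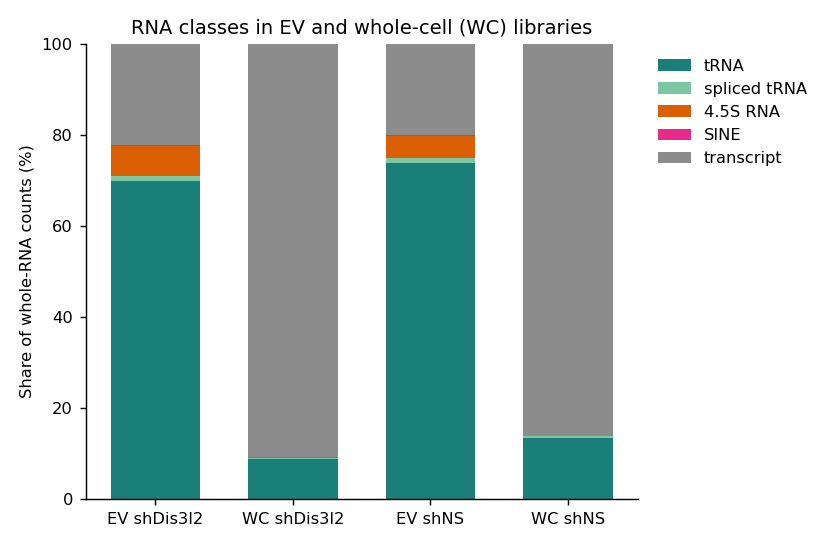
Share of whole-RNA counts (%) held by each RNA class in the EV and whole-cell (WC) libraries of the shDis3l2 and shNS lines, 1 library per bar. Named tRNA fills 71.0% of the EV shDis3l2 bar and 9.09% of the WC shDis3l2 bar, and SINE shares are too small to see.

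The leading rows of the 2 libraries were almost all different. The 10 rows with most counts held 56.8% of EV counts and 64.5% of cell counts, and 8 rows in EVs but 2 rows in cells reached 50% of the counts. Of the 10 leading EV rows, 5 were named tRNAs, 4 were transcript rows and 1 was 4.5S RNA. All 10 leading cell rows were transcript rows. The lists shared 1 row, ENSMUST00000083988. Among the 50 leading rows, 39 were named tRNAs in EVs and 10 in cells.

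A row counted as measured with at least 100 counts over both libraries, and as higher or lower in EVs with at least a 2-fold ratio and an interval that excluded equality. A row can reach 100 counts through 1 library alone. Of 525 measured rows, 174 were higher (33.1%) and 305 were lower (58.1%). Among 163 tRNA rows (all but those listed as spliced), 134 were higher and 8 lower. The 6 measured SINE rows and the 4.5S RNA row were all higher, while 296 of 341 transcript rows were lower and 25 were higher. The median log2 ratio was 2.67 for tRNA rows, 4.12 for SINE rows and -5.64 for transcript rows, beside -3.31 for all measured rows. The SINE median rests on the count minimum: over the 10 SINE rows with at least 20 counts it was 2.12. Without the largest row, 146 of the 525 were higher (27.8%) and 324 lower (61.7%), and the tRNA rows split into 113 higher and 15 lower.

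**Figure D2:**
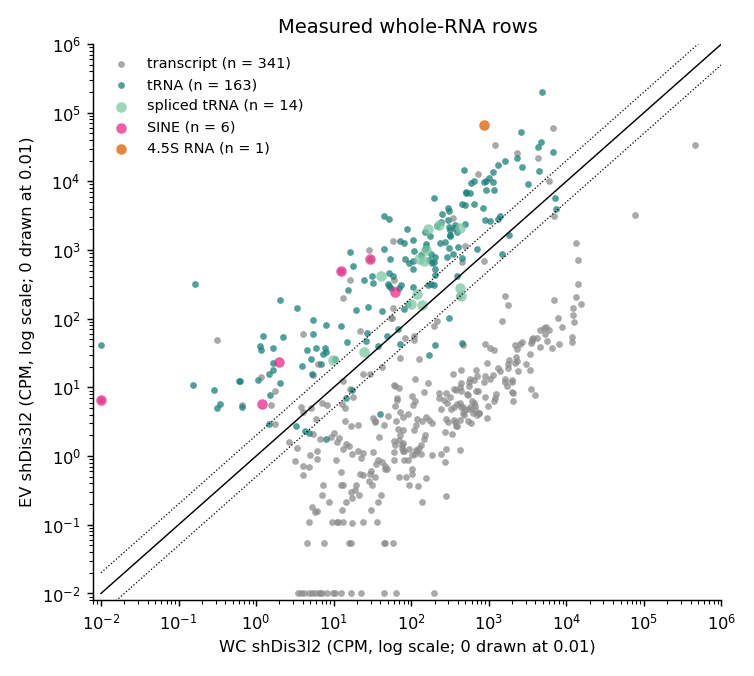
Each measured whole-RNA row by its CPM in WC shDis3l2 (x axis) and in EV shDis3l2 (y axis), both on log scales with 0 drawn at 0.01, coloured by class. The solid line marks equality and the dotted lines mark a 2-fold ratio; most tRNA rows lie above the lines and most transcript rows far below.

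Rows were also compared over all 7 libraries of the series, as a description. In 168 of the 525 rows (32.0%) the 5 EV libraries all lay above the 2 cell libraries, and in 307 (58.5%) they all lay below. Of 163 tRNA rows, 127 lay above and 13 below. The EV libraries come from different genotypes and are not replicates.

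The most counted RNA of knockdown EVs was tRNA-Gly-TCC-1-1, a glycine tRNA that reads GGA codons. It stood at 200733 CPM in EV shDis3l2 and 4818 CPM in WC shDis3l2, a log2 ratio of 5.38 (5.37 to 5.39). The other EV libraries had 179037 CPM (shNS), 173671 CPM (Vector), 148544 CPM (Dis3l2r) and 114556 CPM (D389N), and WC shNS had 10958 CPM. Every EV library lay above both cell libraries, and the knockdown pair held the highest EV value and the lower cell value. Without the largest row the log2 ratio in the knockdown pair was 4.54.

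The 4.5S RNA stood at 66910 CPM in EV shDis3l2 and 865 CPM in WC shDis3l2, a log2 ratio of 6.27 (6.26 to 6.29). In the shNS pair it stood at 47810 CPM in EVs and 1951 CPM in cells, a log2 ratio of 4.61. The remaining EV libraries ranged from 50612 CPM (Dis3l2r) to 83013 CPM (D389N), so the groups did not overlap.

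Among the next most counted EV tRNAs, tRNA-Lys-CTT-3-1 had 51564 CPM in EVs and 2623 CPM in cells, a log2 ratio of 4.30. The arginine tRNA tRNA-Arg-CCG-3-1 had 37012 CPM in EVs and 4713 CPM in cells, a log2 ratio of 2.97. The initiator tRNA-iMet-CAT-1-1, which starts translation, had 31516 CPM in EVs and 4247 CPM in cells, a log2 ratio of 2.89. All 3 were several-fold higher in EVs, but by less than the glycine tRNA. The glutamate tRNA tRNA-Glu-CTC-1-1 had 26741 CPM in EVs and 6681 CPM in cells, a log2 ratio of 2.00, or 1.16 without the largest row.

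SINE RNAs were low in both libraries, and the 6 rows with at least 100 counts were higher in EVs. Of these, SINE_B1, SINE_B2_Mm2 and SINE_B4 reached that minimum only through their EV counts, so the minimum itself favours a higher value. The 4 rows between 20 and 100 counts were mixed, with SINE_B1_Mm at a log2 ratio of 1.37, RSINE1 at 0.49, SINE_B1_Mur4 at -0.02 and SINE_B1_Mus1 at -2.65. The first SINE_B1_Mus2 row had 503 CPM in EVs and 12.4 CPM in cells, a log2 ratio of 5.34. The second had 750 CPM in EVs and 29.8 CPM in cells (4.65, 4.56 to 4.75), and SINE_B1 had 23.8 CPM in EVs and 1.98 CPM in cells (3.59, 3.21 to 3.99). SINE_B2, the other main mouse family, had 246 CPM in EVs and 62.6 CPM in cells, a smaller log2 ratio of 1.98 (1.90 to 2.05). SINE_B2_Mm2 had 121 counts in EVs against 0 counts in cells. With a floor of 3 counts per library its log2 ratio was 6.15, and its interval reached down to 5.83. SINE_B4 had 104 counts in EVs against 38 counts in cells (2.26, 1.72 to 2.84). The summed B1 rows were higher by 4.74 in this pair and by 6.14 in the shNS pair, where EVs had 1369 CPM and cells 19.5 CPM, beside 1283 CPM in EVs and 47.9 CPM in cells here. Of the 6 measured SINE rows, 3 followed a transcript row in each of the 7 libraries, within 2 counts or 5%, so these RNAs stand in both classes.

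Grouped by anticodon, with spliced rows included, 44 of 49 measured families were higher in EVs (89.8%) and 0 were lower. The highest were Gly-TCC at a log2 ratio of 5.38, Ser-TGA at 5.10 (5.06 to 5.15), Ser-GGA at 4.94 (4.46 to 5.46), Ser-AGA at 4.58 and Lys-CTT at 4.24 (4.23 to 4.25). Ser-TGA had 4824 CPM in EVs and 140 CPM in cells, whereas Ser-GGA was scarce, with 35.1 CPM in EVs and 1.14 CPM in cells. The 5 families that passed in neither direction were Pro-AGG (0.09), Ile-TAT (-0.06), Ala-TGC (-0.54), Tyr-GTA (-0.68) and Gly-ACC (-0.92). Without the largest row 38 families were higher (77.6%) and 3 were lower (6.12%), namely Ala-TGC at -1.38, Tyr-GTA at -1.52 and Gly-ACC at -1.76. Leu-CAA, Arg-CCT, SeC-TCA, Ala-CGC, Met-CAT and Glu-TTC then no longer passed the 2-fold limit, at 0.97, 0.78, 0.68, 0.64, 0.62 and 0.37.

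**Figure D3:**
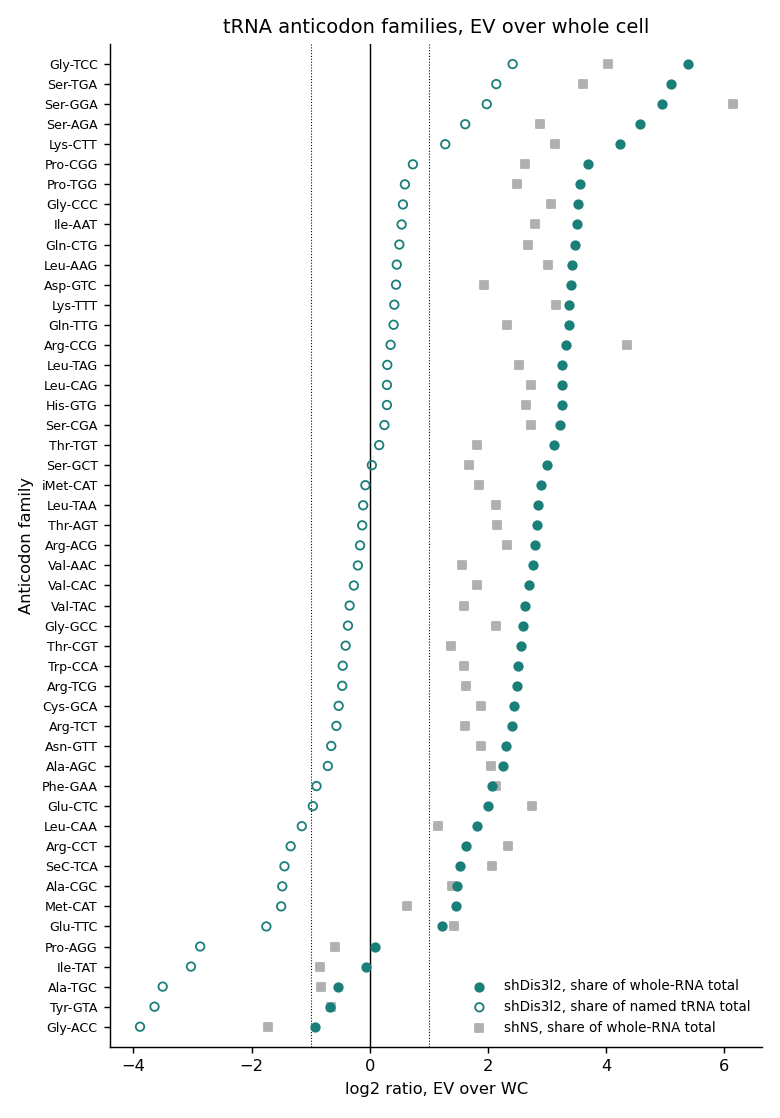
Log2 ratio of EV over WC for 49 anticodon families. Filled circles are the shDis3l2 pair as shares of the whole-RNA total, open circles the same pair as shares of the named tRNA total, and grey squares the shNS pair; dotted lines mark a 2-fold ratio. Filled circles run between -0.92 (Gly-ACC) and 5.38 (Gly-TCC), and open circles lie lower by a fixed 2.96.

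Because nearly all families were higher, the make-up of the tRNA pool was also compared, with each family as a share of the named tRNA counts. On this scale 5 families were higher (10.2%) and 11 were lower (22.4%), and 23 of the 44 families that were higher by whole-RNA totals had a negative log2 ratio. The direction of 6 of those 44 turned past the 2-fold limit: Leu-CAA, Arg-CCT, SeC-TCA, Ala-CGC, Met-CAT and Glu-TTC were higher by whole-RNA totals and lower as shares of tRNA. In the shNS pair the log2 ratio as a share of tRNA was -0.11 for Arg-CCT and -0.39 for SeC-TCA. For the others of these families it lay between -1.82 (Met-CAT) and -1.03 (Glu-TTC). Of 177 named tRNA rows in the knockdown pair, 31 were higher (17.5%) and 57 lower (32.2%). Gly-TCC made up 28.3% of tRNA counts in EVs and 5.30% in cells. Lys-CTT made up 8.70% in EVs and 3.59% in cells. Ser-TGA, Ser-AGA and Ser-GGA were the other 3 families higher on this scale, at 0.680%, 0.148% and 0.00495% in EVs and 0.154%, 0.0483% and 0.00126% in cells.

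Among the lower families was Ala-TGC, an alanine tRNA, which made up 1.41% of tRNA counts in EVs and 16.1% in cells. Its log2 ratio on this scale was -3.50, and the scarcer Tyr-GTA (-3.64) and Gly-ACC (-3.89) lay further down. It ranged between 1.31% and 1.64% over the other 4 EV libraries and stood at 15.1% in WC shNS, so the 2 compartments did not overlap. Its rows tRNA-Ala-TGC-2-1 and tRNA-Ala-TGC-4-1 carried most of it: 5724 and 3938 CPM in EVs, 7144 and 7329 CPM in cells. Tyr-GTA made up 0.146% in EVs and 1.82% in cells, and Ile-TAT 0.287% in EVs and 2.34% in cells. Glu-TTC made up 0.892% in EVs and 3.00% in cells, and the selenocysteine tRNA SeC-TCA 1.29% in EVs and 3.52% in cells. In the shNS pair SeC-TCA made up 1.90% in EVs and 2.48% in cells, and in EV D389N 2.69%, so its 2 compartments overlapped.

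By amino acid, glycine tRNAs made up 33.6% of tRNA counts in EVs and 10.9% in cells, and lysine tRNAs 9.04% in EVs and 3.84% in cells. Alanine tRNAs made up 3.86% in EVs and 20.7% in cells, and glutamate tRNAs 4.66% in EVs and 10.3% in cells. Initiator methionine tRNAs had close shares, 4.44% in EVs and 4.68% in cells. In the shNS pair alanine tRNAs made up 3.93% in EVs and 18.7% in cells. There glutamate tRNAs had close shares, 6.19% in EVs and 6.38% in cells, and they made up 6.61% in EV D389N. Initiator methionine tRNAs made up 3.06% in EVs and 4.67% in cells of the shNS pair. Over all 7 libraries, 12 of the 49 families had a higher share of tRNA in each of the 5 EV libraries than in both cell libraries, and 16 had a lower share.

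Rows of the same anticodon did not all share one ratio. Of 40 families with at least 2 measured rows, spliced rows left aside, 27 had every row higher in EVs, and the median range between the lowest and highest row was 2.22 on the log2 scale. In the Ile-AAT family, tRNA-Ile-AAT-3-1 had 5918 counts in EVs against 5 counts in cells, a log2 ratio of 10.93 (9.80 to 12.64). The abundant tRNA-Ile-AAT-1-1 had 188117 counts in EVs against 30119 counts in cells, a log2 ratio of 3.45 (3.44 to 3.47). The rare row was higher in each EV library, between 231 and 777 CPM, than in the cell libraries, at 0.165 CPM (shDis3l2) and 0.388 CPM (shNS). Near-identical tRNA genes share reads, and the estimated counts split such reads between rows, so values of single rows are less certain than family sums.

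Another rare row, tRNA-Thr-AGT-7-1, had 765 counts in EVs against 0 counts in cells. Against the floor of 3 counts per library its log2 ratio was 8.81, and its interval reached down to 8.50. Its EV level varied between libraries, with 41.5 CPM in shDis3l2, 41.5 CPM in Vector, 8.38 CPM in Dis3l2r, 5.81 CPM in D389N and 1.40 CPM in shNS. The 2 highest values came from the EV libraries of knockdown cells with no Dis3l2 transgene, and the inactive D389N lay below Dis3l2r. Any link to Dis3l2 activity was not tested. tRNA-Ala-AGC-5-1 had 3079 CPM in EVs and 44.5 CPM in cells (6.11, 6.04 to 6.19), while tRNA-Ala-AGC-3-1 of the same family stood at a log2 ratio of -0.13. tRNA-Gly-GCC-3-1 had 930 CPM in EVs and 16.4 CPM in cells (5.83, 5.70 to 5.96).

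Rows of both directions occurred in 3 families. In iMet-CAT, the scarce tRNA-iMet-CAT-3-1 had 33 counts in EVs against 255 counts in cells, a log2 ratio of -2.15 (-2.71 to -1.61), while tRNA-iMet-CAT-1-1 held 99.9% of the family's EV counts and was higher. In Lys-CTT, tRNA-Lys-CTT-14-1 had 40 counts in EVs against 157 counts in cells (-1.16, -1.70 to -0.65). The third was Tyr-GTA, whose tRNAs come from genes with an intron.

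With spliced rows left aside, 8 tRNA rows were lower in EVs, and 6 of these belonged to families whose genes hold an intron. Separate spliced rows exist for Leu-CAA, Tyr-GTA, Arg-TCT and Ile-TAT. Spliced and unspliced rows of a tRNA share their sequence outside the intron. Estimated counts split such reads between rows, so the unspliced shares below are estimates. Of 21 measured unspliced rows in these 4 families, 6 were higher and 6 lower, against 128 higher and 2 lower of 142 rows in the families without an intron. The 14 measured spliced rows had 8 higher and 1 lower. Without the largest row the unspliced rows split into 6 higher and 10 lower and the spliced rows into 7 higher and 2 lower.

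Leu-CAA, a leucine tRNA, had spliced and unspliced forms that passed in opposite directions by whole-RNA totals. Its spliced rows summed to 5758 CPM in EVs and 586 CPM in cells, a log2 ratio of 3.30 (3.27 to 3.32). Its unspliced rows summed to 604 CPM in EVs and 1224 CPM in cells, a log2 ratio of -1.02 (-1.05 to -0.99). Unspliced counts were 9.49% of the family in EVs (9.33% to 9.66%) and 67.6% in cells (67.2% to 68.0%). The share was 8.24% in EV shNS, 11.2% in Vector, 14.4% in Dis3l2r and 16.5% in D389N, and 53.0% in WC shNS. The 5 EV libraries all lay below both cell libraries.

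The same difference stood in each Leu-CAA tRNA when rows were summed by isodecoder (tRNAs with one mature sequence). Leu-CAA-4 was 4.33% unspliced in EVs and 74.5% in cells, Leu-CAA-3 4.21% in EVs and 57.5% in cells, Leu-CAA-1 9.32% in EVs and 64.0% in cells, and Leu-CAA-2 17.0% in EVs and 70.5% in cells. The unspliced row tRNA-Leu-CAA-4-1 was the lowest of all named rows, with 44.9 CPM in EVs and 456 CPM in cells (-3.34, -3.45 to -3.24), while its spliced row had 992 CPM in EVs and 156 CPM in cells, a log2 ratio of 2.67.

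Arg-TCT, an arginine tRNA, had a higher unspliced share in EVs. It was 6.34% unspliced in EVs (6.17% to 6.53%) and 1.19% in cells (1.06% to 1.34%). Both forms were higher in EVs, the unspliced rows by a log2 ratio of 4.81 (242 CPM in EVs, 8.64 CPM in cells) and the spliced rows by 2.32 (3576 CPM in EVs, 716 CPM in cells). tRNA-Arg-TCT-1-1, unspliced, had 187 CPM in EVs and 2.02 CPM in cells (6.53, 6.18 to 6.92). In the shNS pair the unspliced share was 2.63% in EVs and 1.19% in cells, and it ranged between 5.59% and 6.10% in the other 3 EV libraries.

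By estimated counts, Ile-TAT was mostly unspliced in both compartments, 80.9% in EVs and 89.8% in cells. In the shNS pair it was 58.4% in EVs and 86.0% in cells. Tyr-GTA was 34.4% unspliced in EVs and 38.0% in cells, beside 24.6% in EVs and 48.5% in cells of the shNS pair. The EV libraries of the transgene lines reached 62.9% (D389N), so for Tyr-GTA the 5 EV libraries overlapped the cell libraries. Within Tyr-GTA the isodecoders differed: Tyr-GTA-4 was 10.9% unspliced in EVs and 62.3% in cells, whereas Tyr-GTA-2 was 39.1% in EVs and 15.3% in cells. Tyr-GTA-2 ran the other way in the shNS pair, at 35.8% in EVs and 41.8% in cells. Over 14 measured isodecoders of the 4 families, the unspliced share was lower in EVs in 9 and higher in 5, whereas in the shNS pair it was lower in 12 and higher in 2. Arg-TCT-3 and Arg-TCT-5 also lay on opposite sides in the 2 pairs, Arg-TCT-5 by a margin of 9.09% in EVs and 9.10% in cells in shNS. The unspliced rows of Tyr-GTA included some of the lowest named rows, tRNA-Tyr-GTA-4-1 at -3.31, tRNA-Tyr-GTA-3-2 at -2.51 and tRNA-Tyr-GTA-1-4 at -2.31.

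**Figure D4:**
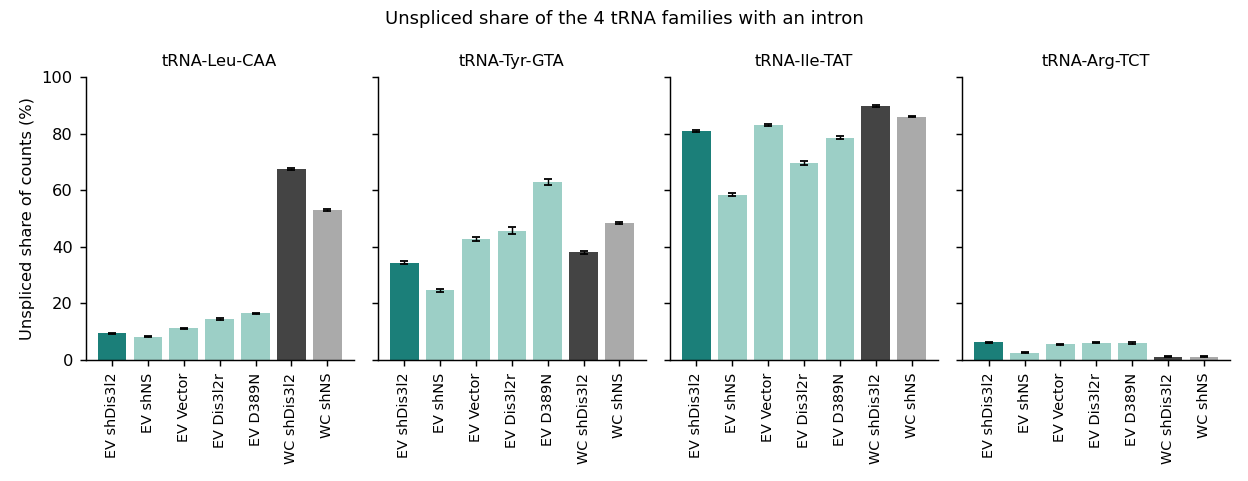
Unspliced share of counts (%) in the 4 tRNA families with an intron, 1 bar per library with its 95% counting interval; darker bars are the shDis3l2 EV and cell libraries. Leu-CAA shows 9.49% in EV shDis3l2 and 67.6% in WC shDis3l2, and Arg-TCT shows 6.34% in EV shDis3l2 and 1.19% in WC shDis3l2.

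Transcript rows were mostly far lower in EVs. Of the 341 measured, 245 were lower by a log2 ratio of at least 4 (a 16-fold difference), 51 were lower by a smaller margin, and 18 had 0 counts in EVs. ENSMUST00000083988, the most counted row of the cells, had 34345 CPM in EVs and 460662 CPM in cells, a log2 ratio of -3.75. In the shNS pair the same row had 53352 CPM in EVs and 193042 CPM in cells, a log2 ratio of -1.86. The next row of the cells, ENSMUST00000083833, had 3206 CPM in EVs and 77699 CPM in cells, a log2 ratio of -4.60.

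A small group of 25 transcript rows was higher in EVs, and 4 of the 10 leading EV rows were transcripts, 3 of them higher. ENSMUST00000174924 had 58904 CPM in EVs and 6678 CPM in cells, a log2 ratio of 3.14 (3.13 to 3.15). Its EV level in the knockdown library stood apart from the other EV libraries, which lay between 7046 CPM (D389N) and 15465 CPM (shNS). ENSMUST00000083211 had 34025 CPM in EVs and 1192 CPM in cells, a log2 ratio of 4.84, and the other EV libraries had 31783 to 35820 CPM. The levels of this RNA were close in all 5 EV libraries. The RNA types of transcript rows are not given, and some, whether higher or lower in EVs, may be tRNAs that carry no tRNA name.

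Set beside the shNS pair, the knockdown pair gave similar directions. Of 517 rows measured in both pairs, 159 were higher in both, 295 were lower in both and 2 had opposite calls. Across the 490 rows with counts in all 4 libraries the log2 ratios had r = 0.948, a description across rows that share libraries and scaling. The shNS pair had 170 rows higher (32.0%) and 316 lower (59.5%) of 531. Among anticodon families, 41 of 49 had a larger log2 ratio in the knockdown pair than in the shNS pair, and 31 of 49 did as shares of the tRNA pool. The cell library took 46.1% of its counts in 1 row in the knockdown and 19.3% in shNS, which moves every ratio by totals. Without that row named tRNA held 73.5% of EV and 16.9% of cell counts in the knockdown pair. In the shNS pair it then held 79.3% of EV and 17.0% of cell counts. The part of this row in the difference between the pairs was not tested. As a share of tRNA counts, Gly-TCC had a log2 ratio of 2.42 in the knockdown pair (28.3% in EVs, 5.30% in cells) and of 1.58 in the shNS pair (23.9% in EVs, 7.98% in cells).

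The table also lists exon, intron and UTR pieces of transcripts, which overlap the whole-RNA rows in part and were compared as sets of their own, each scaled to its own total. Intron pieces held 23.5% of all counts of the table in EVs and 9.80% in cells. Of 10064 measured intron rows, 2369 were higher in EVs (23.5%) and 4815 were lower (47.8%), with a median log2 ratio of -0.91. Scaled to the whole-RNA totals, 3296 were higher (32.8%) and 2285 lower (22.7%), and the median was 0.06, so the direction of the median rests on the scaling. The cell library spread its intron counts over more rows: 68526 intron rows had a count in EVs and 115454 in cells.

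This differed in the shNS pair. There 6059 of 6487 measured intron rows were higher in EVs (93.4%) and 255 were lower (3.93%), with a median of 4.73. The EV shNS library had counts on 84721 intron rows and the WC shNS library on 19429, and the 100 leading rows held 65.7% of its EV and 95.2% of its cell intron counts, beside 69.5% in EVs and 60.6% in cells of the knockdown pair. Between the lines, the number of intron rows with a count thus differed more in the cell libraries than in the EV libraries.

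Of the 5 leading intron pieces of EVs, 4 were higher there. The first had 923858 counts in EVs against 20806 counts in cells, a log2 ratio of 5.31. The second had the counts of tRNA-iMet-CAT-1-1 within a factor of 1.1 in all 7 libraries, 583994 against 580788 in EVs and 137730 against 137371 in cells. Of the 100 leading EV intron pieces, 4 followed a named tRNA row in this way, and these 4 held 12.2% of the EV intron counts. Of the 5 leading intron pieces of the cells, 4 were lower in EVs. The first had 1599 counts in EVs against 393757 counts in cells, a log2 ratio of -8.11. The second had 0 counts in EVs against 378220 counts in cells. Against the floor its log2 ratio was -17.11, and its interval reached up to -16.81. One piece led in both libraries, the fifth in EVs and the third in cells, with 335870 counts in EVs against 270613 counts in cells, a log2 ratio of 0.15 that passed in neither direction.

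Exon pieces were few, with 290646 counts in EVs against 555760 counts in cells. Of 287 measured exon rows, 221 were higher in EVs (77.0%) and 61 lower (21.3%), with a median of 4.09. With a minimum of 500 counts the balance turned, to 27 higher and 31 lower. The 3 leading rows of each library held 9.94% of EV exon counts and 58.7% of cell exon counts. One exon piece had 6400 counts in EVs against 122154 counts in cells of the knockdown pair, and 13700 counts in EVs against 51 counts in cells of the shNS pair. The WC shNS library had 27300 exon counts in all, and the shNS median was 0.71. Without the 10 largest cell rows in the totals, 189 exon rows of the knockdown pair were higher and 66 lower.

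UTR pieces held 16.8% of all counts of the table in EVs and 41.3% in cells. Of 133400 pieces, 129766 lie outside the transcripts that also stand as whole-RNA rows, and these held 4.00% of all counts in EVs and 0.521% in cells. Of 889 measured UTR rows, 559 were higher in EVs (62.9%) and 274 were lower (30.8%). This balance rests on the count minimum: with at least 500 counts, 111 were higher and 212 lower. Among the 581 measured rows outside those transcripts, 370 were higher (63.7%) and 116 lower (20.0%), with a median of 2.11, and in the shNS pair 401 of 521 were higher (77.0%) and 46 lower (8.83%), with a median of 3.20. One of the leading pieces in this set had the counts of tRNA-Gly-CCC-1-1 in all 7 libraries, within the same factor.

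**Figure D5:**
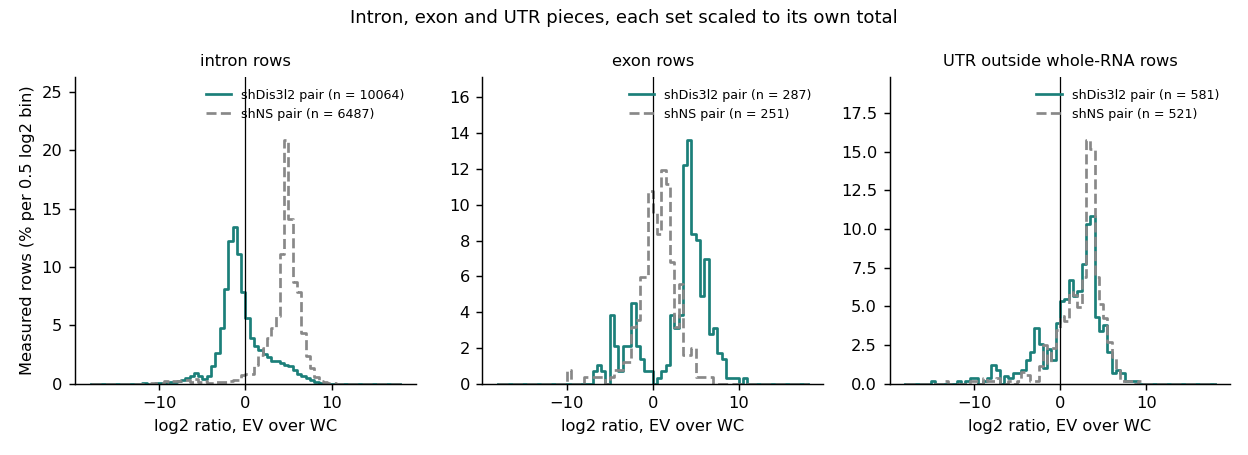
Distribution of the log2 ratio of EV over WC over measured intron, exon and UTR rows (the UTR rows outside transcripts that also stand as whole-RNA rows), in % of rows per bin of 0.5, each set scaled to its own total. Solid lines are the shDis3l2 pair and dashed lines the shNS pair; the intron median is -0.91 in the shDis3l2 pair and 4.73 in the shNS pair, and the exon median is 4.09 in the shDis3l2 pair and 0.71 in the shNS pair.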

How the data were processed

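Per the labels' protocols, a group II intron reverse transcriptase with template switching gave the cDNA of all 7 libraries, and each cDNA carried a random tag of 12 nt. Estimated counts per row, with no scaling from library to library, are what the authors deposited, in 1 table. The submitters' processing notes name Salmon, Novoalign, UMI-tools and cutadapt and the builds mm10 and GRCm38. Versions, order and deduplication are not given in the sources. Estimated counts were rounded for intervals. Of 580839 rows, 3894 stand for whole RNAs, 3639 of them transcript IDs, of which 0 were matched to a name.

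Log2 ratios of EV shDis3l2 over WC shDis3l2 used totals of the whole-RNA rows, with exact conditional binomial (Clopper-Pearson) 95% intervals. PCR reads and estimated counts are not independent molecules, so intervals and floors cover counting error only. As a check of the calculation only, counts were simulated with counting error alone around the levels of WC shDis3l2. The intervals held the true ratio in 95.6% of 503 measured rows, which such counts all but fix in advance. No row was tested, since each side has 1 library. Alternatives were totals without the largest whole-cell row, TMM (edgeR 4.0.16), DESeq2 1.42.0 size factors, totals of all rows or of exon pieces, count minimums and a 4-fold limit. Software was R 4.3.3 and Python 3.11.15 with scipy 1.17.1, numpy 2.4.6, matplotlib 3.10.9 and pandas 2.3.3.

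Rows named are the 10 with most counts on each side, the 10 largest differences each way, the extremes of each class and the 5 highest and lowest families. At most 2 unnamed transcripts were printed in each direction. Spread within families, isodecoders and rows of the intron families were chosen after their values were seen. Members and lists were chosen with earlier results of these data known.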

Additional observations from a re-analysis of the deposited data

Results flagged for a closer look

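The row tRNA-Val-AAC-1-1, a valine tRNA, was called in opposite directions in the 2 lines. It had 62.7 CPM in EV shDis3l2 and 26.9 CPM in WC shDis3l2, a log2 ratio of 1.22 (1.09 to 1.35). In the shNS pair it had 32.2 CPM in EVs and 67.7 CPM in cells, a log2 ratio of -1.07 (-1.19 to -0.95). Without the largest whole-cell row the knockdown value was 0.38 and no longer passed the 2-fold limit. The difference between the pairs was not tested.

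The intron rows as a set pointed in opposite directions when scaled to their own total, with a median log2 ratio of -0.91 in the knockdown pair and 4.73 in the shNS pair. Scaled to the whole-RNA totals both medians were above 0, at 0.06 in the knockdown pair and 6.07 in the shNS pair, so the opposite signs rest on the scaling. The WC shDis3l2 library had counts on 115454 intron rows and the WC shNS library on 19429. This difference was not tested either, and each value rests on 1 cell library.

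The unspliced share of 2 tRNA isodecoders differed beyond the counting intervals in opposite directions. For Tyr-GTA-2 it was 23.82 percentage points higher in EVs than in cells of the knockdown pair, and the difference was -5.98 points in the shNS pair. For Arg-TCT-3 the difference was 1.82 points in the knockdown pair and -1.23 points in the shNS pair. The exon piece with most counts in the knockdown cells had a log2 ratio of -3.32 in the knockdown pair and 4.24 in the shNS pair, where the cell library had 51 counts on it. These differences between the pairs were not tested.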

How the results depend on the processing

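No paired analysis was possible because each group has 1 library and the labels give no replicate numbers shared between groups; leaving out a library was not possible for the same reason. The 5 other scalings shift log2 ratios by between -0.84 and 0.72, less than the 2-fold limit, so none of these can reverse a whole-RNA call. The total of named tRNA rows, chosen after seeing the data, lowers them by 2.96 and did reverse calls: 6 families were higher by whole-RNA totals and lower on this scale. The log2 ratio of summed named tRNA was 3.69 with DESeq2 size factors, 2.49 with TMM and 3.09 with exon totals. It was 3.25 with totals of all rows and 2.12 without the largest whole-cell row. As shares of all rows, named tRNA held 41.7% in EVs and 4.37% in cells. Of whole-RNA counts without the largest row it held 73.5% in EVs and 16.9% in cells. Lower tRNA rows (9 of 177 named rows, beside 142 higher) numbered 5 with DESeq2 size factors or a 4-fold limit, 15 with TMM and 17 without the largest row, and lower families 3 with TMM or without that row. Scaled to the named tRNA total, 31 rows stood higher and 57 lower, as did 5 and 11 families. With no count minimum, 304 whole-RNA rows were higher.

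For pieces, a minimum of 20 counts gave 8290 intron rows higher and 15001 lower, 2522 exon rows higher and 101 lower, and 5394 UTR rows higher and 353 lower. A minimum of 500 gave 593 intron rows higher and 618 lower, 27 exon rows higher and 31 lower, and 111 UTR rows higher and 212 lower, so the exon and UTR balances turned. Intron rows scaled to the whole-RNA total numbered 2285 lower. UTR rows outside the whole-RNA transcripts, chosen after seeing the data, were 370 higher and 116 lower. The cause of these shifts was not tested. Depth limits the scarce rows: 18 measured transcripts had 0 counts in EVs, where only a bound could be given.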
